A study of Mus musculus with 24 samples.

Results

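Described here are 10 genes of stellate cells and the extracellular matrix, out of 22429 genes counted in mouse liver: the fibrillar collagen genes Col1a1, Col1a2 and Col3a1, the proteoglycan gene Dcn, the matrix gene Ecm1, the cell identity genes Des, Pdgfrb and Rgs5, and the genes Hgf and Reln of 2 secreted signals. They were chosen by symbol with earlier results of these data known, although the rule itself reads no measured value. Polyadenylated RNA was sequenced from livers of male F1 hybrids of C57BL6J and FVBN, with 24 libraries in 6 groups of 4. Of these groups 3 were Ercc1 d/- (Ercc1Δ/−), a germline mutant with a truncated and a null allele of a DNA repair gene that develops signs of ageing early: mice aged 16 weeks on dietary restriction, mice aged 16 weeks fed freely, and mice aged 7 weeks fed freely. The other 3 were wild type (Ercc1 +/+): mice aged 16 weeks on dietary restriction, and freely fed mice aged 104 and 16 weeks. Restriction began at 7 weeks of age at 10%, was deepened by 10% each week and reached 30% at 9 weeks, which came to 1.6 g of food a day for the mutant and 2.1 g for the wild type, against 2.3 g for the freely fed mutant and 3.0 g for the freely fed wild type. All mice were housed singly on 1 synthetic diet and had no food on the day the liver was taken. Samples carry numbers within a group, and no label says in words that a number is 1 mouse, so the p-values below describe only how far these samples vary.

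Hepatic stellate cells lie between hepatocytes and the sinusoidal endothelium, where they store vitamin A and act as the pericytes of the liver. On injury they turn into myofibroblasts and lay down fibrillar collagen, a task they share with portal fibroblasts. They also secrete decorin, hepatocyte growth factor and reelin, while ECM1 is known from stellate cells and from hepatocytes.

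The libraries held 13269792 to 20624803 counts each. Levels are given as CPM (counts per 1000000 counts of a library) after TMM scaling, with the SD between the 4 libraries where a group is averaged. A gene is called changed where edgeR's quasi-likelihood test gave a Benjamini-Hochberg adjusted p under 0.05 over all 12690 genes tested. Ercc1, the mutated gene, averaged 1.55 ± 0.331, 1.51 ± 0.414 and 1.61 ± 0.488 CPM in the restricted, the 16-week and the 7-week mutants, against 3.52 ± 0.977, 3.11 ± 0.756 and 2.59 ± 0.413 CPM in the restricted, the 104-week and the 16-week wild types (n = 4 each). Gene counts do not show which part of Ercc1 the reads cover, and Cd3eap overlaps it on the opposite strand. Of 25 further stellate cell and pericyte markers, 23 passed the filter on low counts. Lrat, which esterifies vitamin A, averaged 2.20 CPM over all libraries, the transcription factor gene Hand2 4.11 CPM and the collectin gene Colec11 22.2 CPM. Gfap had no count in 2 libraries and Cspg4 none in 9. The livers were measured whole, so fewer cells of a type and less RNA per cell cannot be told apart. In 1 library, replicate 4 of the freely fed wild type at 16 weeks, Col1a1 stood at 5.03 times, Col1a2 at 3.91 times and Col3a1 at 3.09 times the mean of the other 3 libraries of its group. Results that rest on it are given with and without it.

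All 10 members passed the filter, with 17 to 278 counts per library for Col1a1 and 1084 to 2728 for Ecm1. Compared per length, as mean CPM per kb of exon sequence over all 24 libraries, Ecm1 (43.7) and Dcn (18.3) were the most abundant. Col3a1 followed at 2.18, Reln at 1.71, Rgs5 at 1.05 and Hgf at 1.02 CPM per kb. The chains of type I collagen stood at 0.864 CPM per kb for Col1a1 and 0.787 for Col1a2, above Pdgfrb at 0.73 and Des at 0.674 CPM per kb. The group with the highest mean was the 7-week mutant for Col1a1, Col1a2, Col3a1 and Reln, the restricted mutant for Dcn, Pdgfrb, Rgs5 and Hgf, and the restricted wild type for Des and Ecm1. For each member, every pair of groups that neighbour each other in the order of means overlapped between libraries. The highest group mean was 4.38 times the lowest for Col3a1, 3.65 times for Col1a1 and 3.04 times for Col1a2, and between 1.45 and 2.18 times for the other 7 members.

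**Figure D1:**
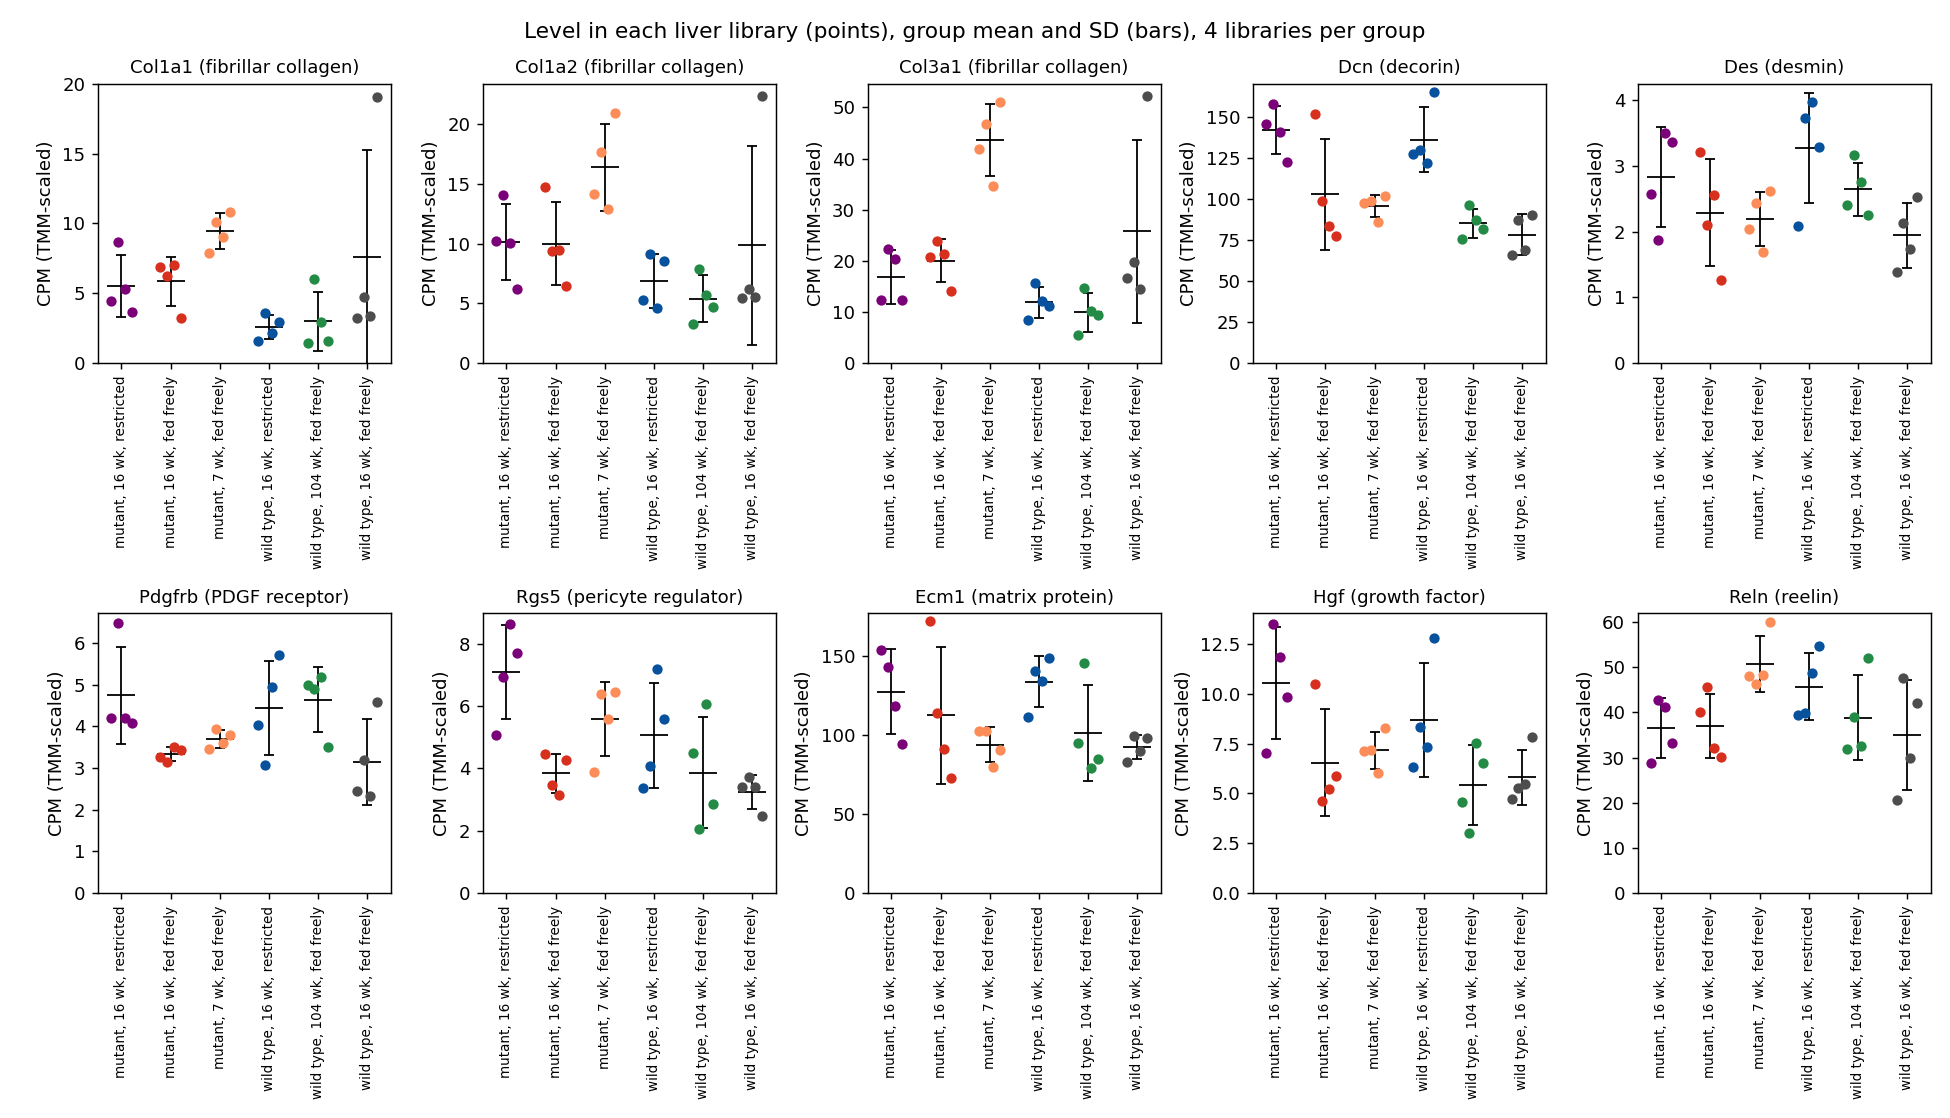
Level of each of the 10 genes in CPM (vertical axis, linear) in every library, by group; points are the 4 libraries of a group, and bars show the group mean and SD. The lower SD bar of Col1a1 in the freely fed wild type at 16 weeks is cut at 0. Replicate 4 of that group reached 19.1 CPM for Col1a1, 22.3 CPM for Col1a2 and 52.3 CPM for Col3a1, and Dcn was above 120 CPM in all 8 restricted libraries.

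Few of the 10 members were called in any comparison. Between freely fed mutants and wild types at 16 weeks no member was called, where 9.94% of all genes were, 5.1% higher and 4.85% lower in the mutant. Restricted mutants against restricted wild types gave no called member either, where 18.3% of all genes were called, 9.58% higher and 8.7% lower. Each of these 2 comparisons had 1 member with an unadjusted p under 0.05, and DESeq2 called 0 in each. Between 104 and 16 weeks in the wild type, 1 member was called, Col3a1, which was lower. An unadjusted edgeR p under 0.05 was reached by 4 members, and 10.1% of all genes were called there, 5.13% higher and 5% lower. Between 16 and 7 weeks in the mutant edgeR called no member, where 0.686% of all genes were called, 0.355% higher and 0.331% lower; 2 members had an unadjusted p under 0.05, and DESeq2 called 1, Col3a1.

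With restriction in the wild type, 3 of 10 members were called against 13.6% of all genes, 6.3% higher and 7.3% lower: Dcn rose, and Col1a1 and Col3a1 fell. Without replicate 4 of the freely fed group neither collagen was called (edgeR adjusted p = 0.39 and 0.228), and Dcn and Pdgfrb were. With restriction in the mutant 1 of 10 was called, Rgs5, which rose, against 11.2% of all genes, 4.91% higher and 6.33% lower. With restriction an unadjusted edgeR p under 0.05 was reached by 7 members in the wild type and by 4 in the mutant. The median log2 fold change of the members with restriction was 0.52 in the wild type and 0.24 in the mutant, beside medians over all genes of 0.04 and 0.00. Neither difference of effects gave a called member by edgeR or by DESeq2. For restriction, mutant minus wild type, 1 member had an unadjusted p under 0.05 and 1.5% of all genes were called, 0.906% with a positive and 0.591% with a negative difference. For age, mutant minus wild type, 1 member likewise had an unadjusted p under 0.05, and 3.05% of all genes were called, 1.8% with a positive and 1.25% with a negative difference; the age spans compared there differ. Several comparisons share the libraries of a group, so their values are not independent of each other.

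Groups that did not overlap between libraries were counted as well. Restricted mutants lay above restricted wild types for 1 of 10 members, Col1a1, where 8.67% of all genes did, and below for 0, where 7.11% did. Mutants at 16 weeks lay below those at 7 weeks for 3 members, Col1a1, Col3a1 and Reln, where 6.45% of all genes did, and above for 0, where 5.94% did. With restriction 2 members lay higher in the wild type, Dcn and Ecm1, where 8.17% of all genes did, and 2 in the mutant, Pdgfrb and Rgs5, where 7.73% did; 0 lay lower, where 9.06% and 9.6% did. Freely fed mutants and wild types at 16 weeks overlapped for all 10 members, where 11% of all genes lay higher and 11.4% lower. So did wild types at 104 and 16 weeks, where 8.21% lay higher and 8.73% lower.

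**Figure D2:**
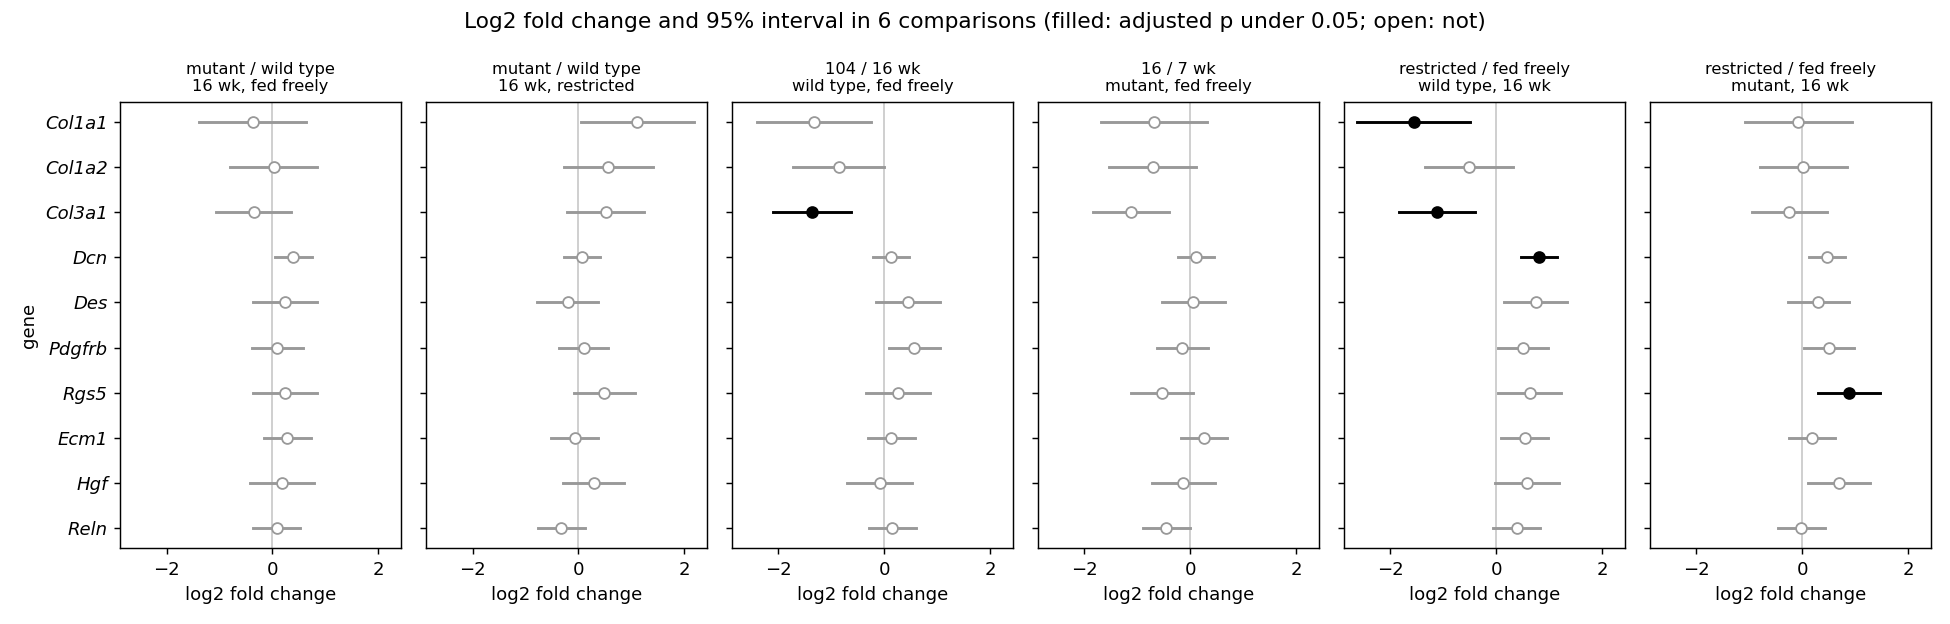
Log2 fold change (horizontal axis) of each of the 10 genes in 6 comparisons, the group named first over the group named second, with 95% intervals; filled black points have an adjusted p under 0.05 and open grey points do not. The filled points are Col3a1 at 104 against 16 weeks (-1.37), Col1a1 (-1.56), Col3a1 (-1.12) and Dcn (0.80) with restriction in the wild type, and Rgs5 (0.88) with restriction in the mutant.

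Col1a1 (ENSMUSG00000001506, chromosome 11, 94936224 to 94953042, plus strand of GRCm38) and Col1a2 (ENSMUSG00000029661, chromosome 6, 4504814 to 4541544, plus strand) encode the chains of type I collagen, and Col3a1 (ENSMUSG00000026043, chromosome 1, 45311538 to 45349706, plus strand) encodes type III collagen, which forms fibrils with it. The 3 genes had their highest means in young mutants and low means in restricted and old wild types. Freely fed wild types at 16 weeks had higher means than both, but for Col1a2 they were above the restricted mean (6.90 CPM) only with replicate 4. Without that library they averaged 3.79 CPM for Col1a1, 5.71 CPM for Col1a2 and 16.9 CPM for Col3a1 (n = 3). The levels of the 3 genes went together from library to library. Over the 24 libraries the log2 CPM of Col1a1 and Col3a1 had a Pearson r of 0.93 (Spearman rho 0.95), that of Col1a1 and Col1a2 an r of 0.92 (rho 0.92), and that of Col1a2 and Col3a1 an r of 0.89 (rho 0.85). With group means taken out the 3 values of r were 0.92, 0.92 and 0.87, and without replicate 4 of the freely fed wild type they were 0.91, 0.91 and 0.87. These are descriptions over libraries that share groups, the highest of 45 pairs.

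The 250 bases before the RefSeq transcript start are shown for Col1a2 (chr6:4505368-4505617, plus strand, GRCm38.p6) and Col3a1 (chr1:45311288-45311537, plus strand), as promoters of genes whose levels went together. Capitals mark matches to 3 short motifs searched on both strands. The CCAAT box was searched under its own letters and as the reverse complement, which reads ATTGG. The TATA box was searched as the word TATAAA, and on the other strand under the letters TTTATA. The GC box was searched as the word GGGCGG, and on the other strand under the letters CCGCCC. No match overlaps another.
Col1a2: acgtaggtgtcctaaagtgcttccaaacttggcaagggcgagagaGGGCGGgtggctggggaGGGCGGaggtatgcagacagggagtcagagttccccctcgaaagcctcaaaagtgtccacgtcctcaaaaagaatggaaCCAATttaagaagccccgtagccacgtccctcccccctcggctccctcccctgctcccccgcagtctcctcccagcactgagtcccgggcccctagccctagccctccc
Col3a1: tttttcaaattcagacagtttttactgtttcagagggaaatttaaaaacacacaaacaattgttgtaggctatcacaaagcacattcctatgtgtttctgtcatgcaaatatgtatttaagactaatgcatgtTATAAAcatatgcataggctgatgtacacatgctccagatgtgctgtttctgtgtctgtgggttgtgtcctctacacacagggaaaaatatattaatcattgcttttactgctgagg
The Col1a2 window held 1 CCAAT box and 2 GC boxes at a GC content of 62.0%. The Col3a1 window held 1 TATA box and no match to the other motifs, at a GC content of 35.2%. Of 32851 RefSeq promoter windows of the same length, 33.8% held the CCAAT box, 12.4% the TATA box and 32.7% the GC box on either strand. These letters are a description and not evidence of binding.

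Col3a1 stood at 12.4, 22.3, 20.4 and 12.4 CPM in restricted mutants, 20.8, 23.9, 21.4 and 14.1 CPM in freely fed mutants at 16 weeks, and 41.8, 46.8, 34.6 and 51.1 CPM in mutants at 7 weeks. In wild types it stood at 8.49, 15.8, 12.1 and 11.2 CPM on restriction, 5.49, 14.7, 10.2 and 9.39 CPM at 104 weeks, and 16.6, 19.8, 14.4 and 52.3 CPM when freely fed at 16 weeks. The 4 mutants at 7 weeks were above every other library except replicate 4 of the freely fed wild type, which was the highest of all 24.

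Between 16 and 7 weeks in the mutant, Col3a1 averaged 20.1 ± 4.19 and 43.6 ± 7.07 CPM, without overlap, at a log2 fold change of -1.12 ± 0.34 (SE) that missed the threshold (edgeR adjusted p = 0.153). Without replicate 4 of the freely fed wild type, which enters this value through the spread shared by all groups, the same log2 fold change of -1.12 ± 0.25 passed it (edgeR adjusted p = 0.0318), among 0.623% of all genes called. It also passed in a fit of the 8 libraries alone (-1.12 ± 0.16, edgeR adjusted p = 0.00143).

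Between 104 and 16 weeks in the wild type Col3a1 fell, at 9.95 ± 3.78 and 25.8 ± 17.8 CPM (log2 fold change by edgeR -1.37 ± 0.35, adjusted p = 0.014). This call rested on replicate 4 of the 16-week group: without it the 16-week mean was 16.9 ± 2.68 CPM (n = 3) and the log2 fold change -0.76 ± 0.27 (edgeR adjusted p = 0.091). It was also lost without replicate 1 of the 104-week group (-1.18 ± 0.36, edgeR adjusted p = 0.0529) and in a fit of the 8 libraries compared (-1.39 ± 0.47, edgeR adjusted p = 0.105). The ranges of the groups overlapped, since the highest library at 104 weeks (14.7 CPM) was above the lowest at 16 weeks (14.4 CPM).

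Col1a1 stood at 4.44, 8.69, 5.31 and 3.69 CPM in restricted mutants, 6.86, 6.27, 7.05 and 3.24 CPM in freely fed mutants at 16 weeks, and 7.87, 10.1, 9.04 and 10.8 CPM in mutants at 7 weeks. The wild types stood at 1.61, 3.58, 2.18 and 2.98 CPM on restriction, 1.41, 6.01, 2.96 and 1.60 CPM at 104 weeks, and 3.22, 4.72, 3.41 and 19.1 CPM when freely fed at 16 weeks. Every restricted mutant was above every restricted wild type, while freely fed groups at 16 weeks overlapped.

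With restriction in the wild type Col1a1 averaged 2.59 ± 0.867 CPM, against 7.60 ± 7.66 CPM on free feeding (log2 fold change by edgeR -1.56 ± 0.51, adjusted p = 0.044). Col3a1 averaged 11.9 ± 3.01 CPM in restricted wild types, against 25.8 ± 17.8 CPM in freely fed ones (log2 fold change by edgeR -1.12 ± 0.34, adjusted p = 0.0322). Both falls rested on replicate 4 of the freely fed group, without which Col1a1 gave -0.56 ± 0.40 (edgeR adjusted p = 0.39) and Col3a1 -0.51 ± 0.27 (edgeR adjusted p = 0.228). Leaving out replicate 1, 3 or 4 of the restricted wild types ended both calls too, at adjusted p from 0.0826 to 0.116 for Col1a1 and from 0.0529 to 0.0944 for Col3a1. A fit of the 8 libraries compared ended both as well (edgeR adjusted p = 0.126 for Col1a1 and 0.105 for Col3a1). In the mutant, restriction gave log2 fold changes of -0.08 ± 0.48 for Col1a1 and -0.25 ± 0.34 for Col3a1 (edgeR adjusted p = 0.946 and 0.709).

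Restricted mutants against restricted wild types gave a Col1a1 log2 fold change of 1.11 ± 0.51 (edgeR adjusted p = 0.135), without overlap. Without replicate 4 of the freely fed wild type, the log2 fold change of 1.11 ± 0.36 passed the threshold (edgeR adjusted p = 0.0352), among 17.7% of all genes called. Freely fed mutants against wild types gave -0.37 ± 0.48 for Col1a1 and -0.36 ± 0.34 for Col3a1 (edgeR adjusted p = 0.708 and 0.571). Without replicate 4 the signs turned, to 0.63 ± 0.39 and 0.25 ± 0.27 (edgeR adjusted p = 0.38 and 0.667), where 7.35% of all genes were called.

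Col1a2 was not called in any comparison. Its group means were 10.1 ± 3.20 CPM in restricted, 10.0 ± 3.46 in 16-week and 16.4 ± 3.64 in 7-week mutants, and 6.90 ± 2.25 CPM in restricted, 5.40 ± 1.96 in 104-week and 9.87 ± 8.32 in 16-week wild types (n = 4 each). Replicate 4 of the last group was at 22.3 CPM and its other 3 libraries were between 5.45 and 6.19 CPM. Freely fed mutants against wild types gave a Col1a2 log2 fold change of 0.03 ± 0.39 with replicate 4 (edgeR adjusted p = 0.978). Without it the value was 0.81 ± 0.31 (edgeR adjusted p = 0.126). With and without it, restriction in the wild type gave -0.52 ± 0.40 and 0.27 ± 0.31, and age gave -0.86 ± 0.41 and -0.08 ± 0.32.

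Dcn (ENSMUSG00000019929, chromosome 10, 97479609 to 97518143, plus strand) encodes decorin, a small proteoglycan that binds collagen fibrils and TGF-beta. It separated the restricted libraries from nearly all others. Restricted mutants stood at 146, 158, 141 and 123 CPM, freely fed mutants at 16 weeks at 152, 99.3, 83.6 and 77.8 CPM, and mutants at 7 weeks at 97.7, 98.8, 86.4 and 102 CPM. Restricted wild types stood at 128, 130, 122 and 166 CPM, wild types at 104 weeks at 75.7, 96.5, 87.5 and 82.0 CPM, and freely fed wild types at 16 weeks at 66.1, 87.7, 69.1 and 90.5 CPM. All 8 restricted libraries were above every freely fed library but 1, replicate 1 of the freely fed mutant at 16 weeks.

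With restriction in the wild type Dcn rose, with a log2 fold change of 0.80 ± 0.16 (edgeR adjusted p = 0.00188) and all 4 restricted libraries above all 4 freely fed ones. This call held in each of the 8 fits that left out 1 library of the compared groups, and leaving out replicate 4 of the freely fed group gave 0.88 ± 0.18 (edgeR adjusted p = 0.00265, among 10.3% of all genes called). In the mutant the log2 fold change of 0.46 ± 0.16 missed the threshold (edgeR adjusted p = 0.0692). It rested on replicate 1 of the freely fed mutants: without that library it was 0.71 ± 0.14 (edgeR adjusted p = 0.00152). DESeq2 called it with all libraries (0.48 ± 0.17, DESeq2 adjusted p = 0.0471). The effect of restriction differed between mutant and wild type by -0.34 ± 0.23 (95% interval -0.82 to 0.15, edgeR adjusted p = 0.543). Across genotypes and ages no Dcn value passed the threshold, and freely fed mutants averaged 103 ± 33.8 CPM against 78.3 ± 12.6 CPM in freely fed wild types (log2 fold change by edgeR 0.40 ± 0.16, adjusted p = 0.131).

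Ecm1 (ENSMUSG00000028108, chromosome 3, 95734147 to 95739569, minus strand) encodes a secreted matrix protein that limits the activation of stored TGF-beta in mouse liver. Restricted wild types stood at 111, 141, 134 and 149 CPM, against 82.9, 99.2, 89.5 and 97.9 CPM in freely fed wild types. The groups did not overlap. The log2 fold change of 0.53 ± 0.21 missed the threshold (edgeR adjusted p = 0.0935), and passed it in a fit of these 8 libraries alone (0.53 ± 0.13, edgeR adjusted p = 0.0285). In the mutant, 154, 143, 119 and 94.0 CPM on restriction stood against 172, 114, 91.0 and 72.5 CPM on free feeding, which overlapped (log2 fold change by edgeR 0.18 ± 0.21, adjusted p = 0.645). Replicate 1 of the freely fed mutant was the highest of all 24 libraries for Ecm1, as it was the highest freely fed library for Dcn. Over the 24 libraries log2 CPM of Dcn and Ecm1 had a Pearson r of 0.82 (rho 0.81), 0.80 with group means taken out and 0.78 without the 2 libraries farthest from the median of Dcn.

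**Figure D3:**
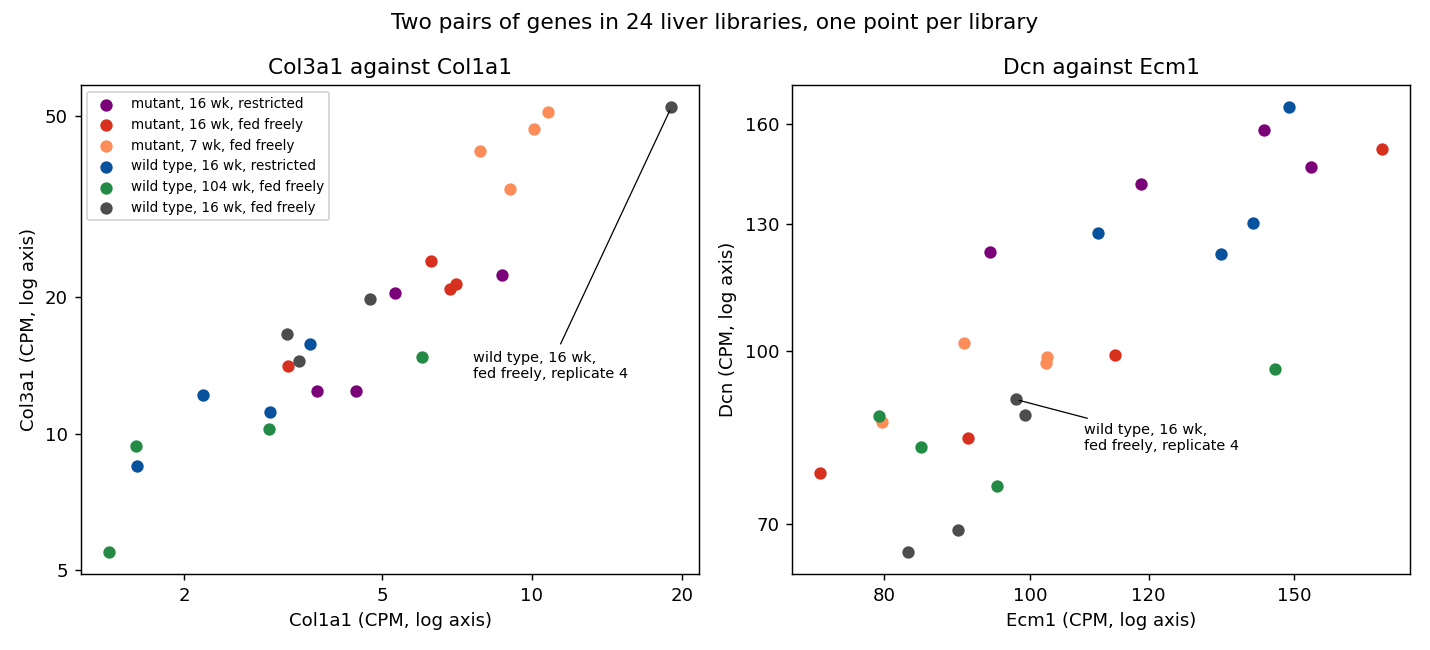
Level of Col3a1 against Col1a1 (left) and of Dcn against Ecm1 (right) in CPM on log axes, 1 point per library, coloured by group. Replicate 4 of the freely fed wild type at 16 weeks lies at the upper end of the collagen pair (19.1 and 52.3 CPM) and among its group for Ecm1 and Dcn (97.9 and 90.5 CPM).

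Des, Pdgfrb and Rgs5 are used to identify stellate cells and pericytes. Rgs5 (ENSMUSG00000026678, chromosome 1, 169655501 to 169695813, plus strand), an inhibitor of G protein signalling that marks pericytes, rose with restriction in the mutant. It stood at 5.08, 6.92, 8.64 and 7.71 CPM in restricted mutants, 4.47, 3.48, 3.13 and 4.26 CPM in freely fed mutants at 16 weeks, and 3.88, 6.37, 5.58 and 6.45 CPM in mutants at 7 weeks. In wild types it stood at 3.37, 4.08, 7.19 and 5.58 CPM on restriction, 4.49, 2.06, 6.06 and 2.84 CPM at 104 weeks, and 3.39, 3.73, 3.41 and 2.47 CPM when freely fed at 16 weeks. Restricted mutants were all above freely fed mutants of the same age.

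The rise of Rgs5 in restricted mutants was 0.88 ± 0.28 on the log2 scale (edgeR adjusted p = 0.0378). It was lost without any 1 of 6 of the 8 libraries compared, replicates 2, 3 and 4 of either group, at log2 fold changes from 0.77 to 0.94 and edgeR adjusted p from 0.0632 to 0.116. DESeq2 gave 0.90 ± 0.28 (DESeq2 adjusted p = 0.0144). In the wild type the value was 0.63 ± 0.28 (edgeR adjusted p = 0.14), and the difference between the genotypes was 0.25 ± 0.39 (95% interval -0.58 to 1.08, edgeR adjusted p = 0.83).

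The 250 bases before the RefSeq start of Rgs5 (chr1:169655251-169655500, plus strand, GRCm38.p6) are shown because Rgs5 was the member called in the mutant, with the capitals as above.
Rgs5: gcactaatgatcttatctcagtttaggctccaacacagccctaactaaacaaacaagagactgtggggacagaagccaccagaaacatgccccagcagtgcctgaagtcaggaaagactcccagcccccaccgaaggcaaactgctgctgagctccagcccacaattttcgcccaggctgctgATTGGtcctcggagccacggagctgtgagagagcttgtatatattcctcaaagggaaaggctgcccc
Its window held 1 match, to the CCAAT box on the minus strand. Of the other members with a RefSeq promoter entry, the windows of Des (2 GC boxes), Ecm1 (1 TATA box and 1 GC box) and Reln (6 GC boxes) held matches and the 2 windows of Hgf held none. In all, 7 of 10 members had an entry, and Col1a1, Dcn and Pdgfrb are named only.

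Pdgfrb (ENSMUSG00000024620), the PDGF receptor that drives stellate cell growth and migration, stood at 4.20, 6.49, 4.20 and 4.08 CPM in restricted mutants, against 3.27, 3.13, 3.49 and 3.43 CPM in freely fed mutants at 16 weeks. Every restricted library was above every freely fed one in the mutant, but the log2 fold change of 0.51 ± 0.23 missed the threshold (edgeR adjusted p = 0.149). In wild types Pdgfrb stood at 4.03, 3.08, 4.94 and 5.70 CPM on restriction, 4.99, 4.90, 5.18 and 3.49 CPM at 104 weeks, and 2.44, 3.19, 2.34 and 4.59 CPM when freely fed at 16 weeks. The last library in that list is replicate 4, the highest of its group here as well. With it, the log2 fold changes were 0.51 ± 0.23 for restriction and 0.57 ± 0.23 for age (edgeR adjusted p = 0.14 and 0.118). Without it, Pdgfrb rose in both comparisons, by 0.74 ± 0.23 with restriction (edgeR adjusted p = 0.0394) and by 0.80 ± 0.23 at 104 weeks (edgeR adjusted p = 0.0352, among 6.76% of all genes called).

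Des (ENSMUSG00000026208, chromosome 1, 75360329 to 75368579, plus strand), the intermediate filament desmin, had the lowest counts of the 10 members beside Col1a1, at 20 to 62 counts per library. It averaged 3.27 ± 0.839 CPM in restricted wild types, against 1.95 ± 0.495 CPM in freely fed ones (log2 fold change by edgeR 0.75 ± 0.28, adjusted p = 0.0779). The call was gained without replicate 1 of the restricted wild types, at 2.09 CPM the lowest of that group (0.92 ± 0.29, edgeR adjusted p = 0.0368). Des averaged 2.83 ± 0.757 CPM in restricted mutants, against 2.29 ± 0.815 CPM in freely fed mutants at 16 weeks (log2 fold change by edgeR 0.30 ± 0.28, adjusted p = 0.547). An antisense gene overlaps Des, and antisense genes and pseudogenes overlap Reln; none of these is in the count table, and whether counting used strand is not given in the sources used here.

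Hgf (ENSMUSG00000028864, chromosome 5, 16553495 to 16620152, plus strand) encodes hepatocyte growth factor, the signal from stellate and endothelial cells to the receptor MET on hepatocytes. It stood at 7.00, 13.5, 11.9 and 9.85 CPM in restricted mutants, against 10.5, 4.62, 5.20 and 5.85 CPM in freely fed mutants at 16 weeks. Apart from replicate 1, the highest of the freely fed mutants, the freely fed libraries were below all restricted ones. The log2 fold change was 0.69 ± 0.28 (edgeR adjusted p = 0.119), and without replicate 1 of the freely fed mutants it passed the threshold (1.02 ± 0.28, edgeR adjusted p = 0.0217). In wild types Hgf averaged 8.68 ± 2.86 CPM on restriction, 5.42 ± 2.03 CPM at 104 weeks and 5.81 ± 1.37 CPM on free feeding at 16 weeks, with no call.

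Several genes that act on HGF or through its receptor were called where Hgf was not. The activator gene Hgfac, whose product cleaves the HGF precursor, fell with restriction in the mutant to 102 ± 6.86 CPM, against 159.5 ± 10.9 CPM on free feeding (log2 fold change by edgeR -0.64 ± 0.15, adjusted p = 0.00463). Spint2, an inhibitor of that cleavage, was higher in freely fed mutants at 85.9 ± 8.36 CPM, against 41.9 ± 2.42 CPM in wild types (log2 fold change by edgeR 1.04 ± 0.18, adjusted p = 0.000289). Plg, the gene of plasminogen, rose at 104 weeks to 2725 ± 103 CPM, against 1869 ± 136 CPM at 16 weeks (log2 fold change by edgeR 0.54 ± 0.12, adjusted p = 0.00401). Of 14 tested genes of the HGF axis, 1 rose and 3 fell with restriction in the mutant, where 4.91% of all genes rose and 6.33% fell, and 0 were called with restriction in the wild type, where 13.6% of all genes were. Between restricted mutants and wild types, 3 rose and 4 fell, where 9.58% of all genes rose and 8.7% fell.

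Reln (ENSMUSG00000042453, chromosome 5, 21884454 to 22344702, minus strand), the secreted glycoprotein reelin, which in adult liver marks stellate cells, was not called in any comparison. It stood at 40.0, 45.6, 32.1 and 30.2 CPM in mutants at 16 weeks, against 48.1, 46.4, 48.4 and 60.0 CPM in mutants at 7 weeks. These groups did not overlap, at a log2 fold change of -0.45 ± 0.21 (edgeR adjusted p = 0.447). In the other groups it averaged 36.5 ± 6.63 CPM in restricted mutants, 45.6 ± 7.44 CPM in restricted wild types, 38.8 ± 9.33 CPM at 104 weeks and 35.0 ± 12.2 CPM in freely fed wild types at 16 weeks. Of 7 tested genes of the reelin axis, the receptor gene Vldlr alone was called in any comparison of groups. Vldlr averaged 0.391 ± 0.236 CPM in freely fed mutants, against 5.05 ± 1.38 CPM in freely fed wild types (log2 fold change by edgeR -3.66 ± 0.58, adjusted p = 0.000123). On restriction the mutant rose to 3.88 ± 0.499 CPM, against 0.391 ± 0.236 CPM on free feeding (log2 fold change by edgeR 3.28 ± 0.58, adjusted p = 0.000405). Counts of Vldlr were low in freely fed mutants, which limits the precision of both values. Restricted wild types averaged 9.81 ± 2.29 CPM of Vldlr, against 5.05 ± 1.38 CPM on free feeding (log2 fold change by edgeR 0.96 ± 0.44, adjusted p = 0.149). The difference of its restriction effect between mutant and wild type was not called (2.32 ± 0.74, edgeR adjusted p = 0.124). The receptor also binds lipoproteins.

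Other stellate cell and matrix genes were counted in lists of which the 10 members are left out. Between freely fed mutants and wild types 6 of 23 stellate cell and pericyte markers rose and 0 fell, where 5.1% of all genes rose and 4.85% fell, and 5 rose without replicate 4 of the wild types. Of 12 markers of portal fibroblasts and mesothelium 4 rose and 0 fell in freely fed mutants, and 3 rose without that library. Among them were Thy1, a surface protein of portal fibroblasts, at 0.985 ± 0.414 against 0.189 ± 0.0895 CPM (log2 fold change by edgeR 2.36 ± 0.55, adjusted p = 0.00486), and Cd34 at 1.90 ± 0.520 against 0.652 ± 0.135 CPM (log2 fold change by edgeR 1.52 ± 0.31, adjusted p = 0.00187). Thy1 had only 1 to 25 counts per library. Of 4 tested lymphocyte markers 2 rose in this comparison (1 without replicate 4 of the wild types), at overlapping sums of 5.343 to 14.55 against 6.346 to 12.44 CPM. The median log2 fold change between freely fed mutants and wild types was 0.22 for the stellate cell list and 0.12 for the portal list, beside 0.02 over all genes. Between restricted mutants and restricted wild types fewer were called. There 1 of the 23 rose and 1 fell, and 1 of the 12 rose and 0 fell, where 9.58% of all genes rose and 8.7% fell. The medians there were 0.155 and 0.15, beside -0.03 over all genes. In wild types at 104 against 16 weeks 4 of the 23 rose and 1 fell, beside 5.13% and 5% of all genes. Without replicate 4 of the 16-week group 3 rose and 1 fell. With restriction 2 of the 23 rose and 0 fell in each genotype. Beside these, 6.3% of all genes rose and 7.3% fell in the wild type, and 4.91% and 6.33% in the mutant. In the wild type 1 rose without replicate 4 of the freely fed group.

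Of 15 collagens other than the 3 members, 1 rose and 3 fell with restriction in the wild type, where 6.3% of all genes rose and 7.3% fell. Without replicate 4 of the freely fed group 2 rose and 2 fell, where 10.3% of all genes were called in either direction. Col5a3, a chain of type V collagen, fell to 4.30 ± 3.42 CPM, against 39.8 ± 6.88 CPM on free feeding (log2 fold change by edgeR -3.19 ± 0.49, adjusted p = 0.000184), and Col15a1, a basement membrane collagen, fell to 2.95 ± 2.19 CPM, against 11.3 ± 2.95 CPM (log2 fold change by edgeR -1.92 ± 0.45, adjusted p = 0.00637). The transmembrane collagen gene Col13a1 rose with restriction in the wild type (1.14 ± 0.24, edgeR adjusted p = 0.00274) and in the mutant (1.20 ± 0.25, edgeR adjusted p = 0.00157). In restricted mutants against restricted wild types 2 of 15 rose, Col4a1 and Col4a2 of the basement membrane, and 1 fell, where 9.58% of all genes rose and 8.7% fell. Col4a2 stood at 27.4 ± 5.45 against 13.1 ± 4.13 CPM (log2 fold change by edgeR 1.06 ± 0.21, adjusted p = 0.000847). Between 104 and 16 weeks, and between 16 and 7 weeks in the mutant, edgeR called 0 of the 15.

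Of 26 genes that fold, trim and degrade collagen, 3 rose and 5 fell between restricted mutants and restricted wild types, the comparison with the most calls over all genes (9.58% rose and 8.7% fell). Serpinh1, the collagen chaperone HSP47, fell to 8.67 ± 4.00 CPM, against 18.2 ± 5.24 CPM (log2 fold change by edgeR -1.07 ± 0.27, adjusted p = 0.00707). Bmp1, which trims the ends of procollagen, fell to 102 ± 18.4 CPM, against 158 ± 32.4 CPM (log2 fold change by edgeR -0.63 ± 0.13, adjusted p = 0.00136). Mmp12, the elastase of macrophages, rose to 2.78 ± 0.571 CPM, against 0.214 ± 0.230 CPM (log2 fold change by edgeR 3.74 ± 0.79, adjusted p = 0.00153). Its counts were low in restricted wild types, with an SD above the mean, which limits the precision of this value. Mmp14, a membrane-bound collagenase, rose with restriction in the mutant to 54.3 ± 7.78 CPM, against 25.1 ± 3.97 CPM (log2 fold change by edgeR 1.11 ± 0.17, adjusted p = 4.76e-05), and in the wild type to 52.4 ± 11.9 CPM, against 32.5 ± 3.86 CPM (log2 fold change by edgeR 0.69 ± 0.16, adjusted p = 0.00651).

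Of 26 matrix glycoproteins and proteoglycans, 4 rose and 1 fell with restriction in the mutant, where 11.2% of all genes were called, and 0 were called in the wild type, where 13.6% of all genes were. Nid1, a basement membrane linker, rose to 15.1 ± 4.52 CPM, against 5.23 ± 1.11 CPM (log2 fold change by edgeR 1.52 ± 0.26, adjusted p = 0.000231). The difference of its restriction effect between mutant and wild type was not called (1.02 ± 0.36, edgeR adjusted p = 0.178). Postn, the gene of periostin, was higher in restricted mutants than in restricted wild types at 15.2 ± 5.67 against 3.00 ± 1.04 CPM (log2 fold change by edgeR 2.35 ± 0.38, adjusted p = 0.000135). In that comparison 2 of the 26 rose and 1 fell, where 9.58% of all genes rose and 8.7% fell. Between 16 and 7 weeks in the mutant 1 of the 26 was called, Sparc, a collagen-binding glycoprotein, which fell to 17.5 ± 3.13 CPM, against 39.6 ± 4.40 CPM (log2 fold change by edgeR -1.18 ± 0.21, adjusted p = 0.00404). It fell in the same comparison in which Col3a1 lay at -1.12.

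Of 26 genes of TGF-beta and PDGF signalling, 3 rose with restriction in the mutant, where 4.91% of all genes rose and 6.33% fell. With restriction in the wild type 1 rose, where 6.3% rose and 7.3% fell, and 0 of the 26 fell in either genotype. Without replicate 4 of the freely fed wild types 0 rose there, where 10.3% of all genes were called in either direction. At 104 weeks 2 fell in the wild type, among them Ccn1, a matricellular target of this signalling, to 2.58 ± 0.863 CPM, against 6.79 ± 1.82 CPM at 16 weeks (log2 fold change by edgeR -1.39 ± 0.24, adjusted p = 0.000483). Without replicate 4 of the 16-week group 1 fell, with Ccn1 at -1.19 (edgeR adjusted p = 0.00328), and 2 rose. Tgfbr2, a TGF-beta receptor, was higher in restricted mutants than in restricted wild types at 13.3 ± 3.62 against 5.80 ± 1.68 CPM (log2 fold change by edgeR 1.20 ± 0.31, adjusted p = 0.00754). In that comparison 1 of the 26 rose and 1 fell, where 9.58% of all genes rose and 8.7% fell.

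**Figure D4:**
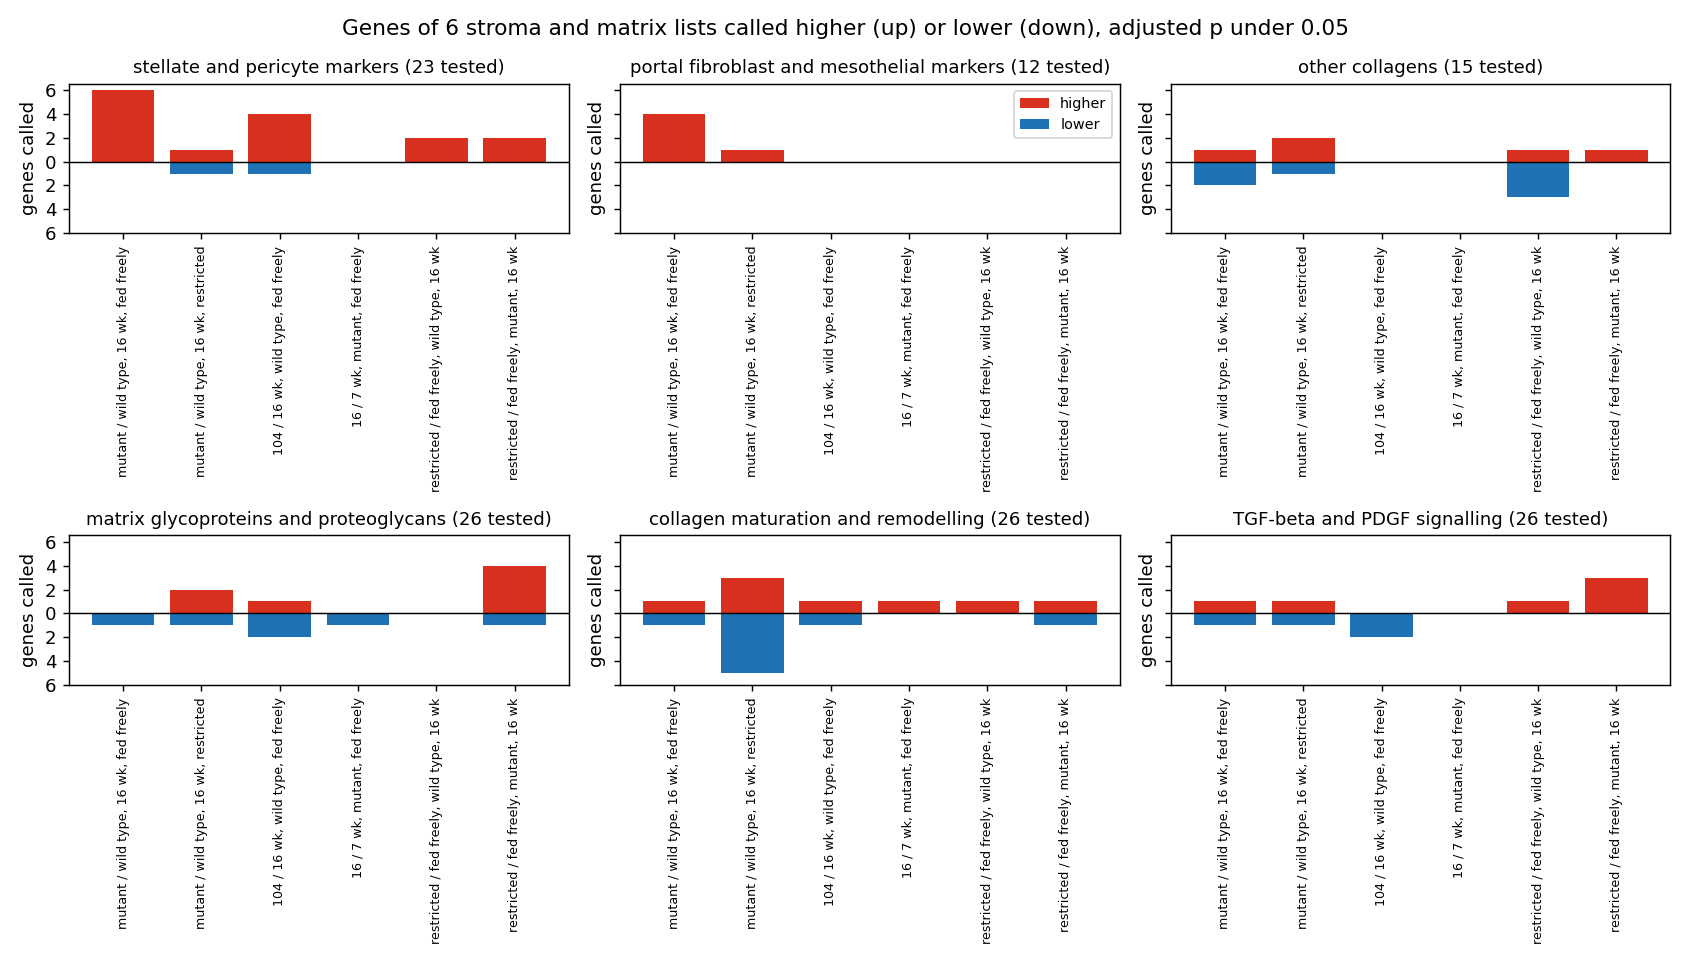
Number of genes called higher (red, up) or lower (blue, down) at an adjusted p under 0.05 in 6 lists of stroma and matrix genes (panels) and 6 comparisons (horizontal axis); the 10 members are not in the lists. The tallest bars are 6 of 23 stellate cell and pericyte markers higher in freely fed mutants and 5 of 26 collagen maturation genes lower in restricted mutants than in restricted wild types.

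Markers of other cell types moved in the same comparisons, and their part in the values above was not tested. Beside the counts below, 5.1% of all genes rose and 4.85% fell in freely fed mutants against wild types, and 9.58% and 8.7% in restricted ones. With restriction 6.3% rose and 7.3% fell in the wild type, and 4.91% and 6.33% in the mutant. At 104 against 16 weeks 5.13% rose and 5% fell. Of 17 macrophage markers 10 rose in freely fed mutants against wild types and 15 in restricted mutants against wild types, with summed levels of 250.9 to 432 against 155.9 to 232.4 CPM on free feeding and of 323 to 455.8 against 116.9 to 200 CPM on restriction. Of 18 endothelial markers 4 rose with restriction in the mutant, where Rgs5 rose, with sums of 242.1 to 336.4 CPM on restriction and 190.4 to 257.4 CPM on free feeding. In the wild type 0 of the 18 were called with restriction, at sums of 275.5 to 433.7 against 195.9 to 320.8 CPM. At 104 weeks, where Col3a1 fell, 3 of 18 endothelial markers fell in the wild type, and 0 without replicate 4 of the 16-week group. In that comparison 3 of 4 tested lymphocyte markers rose, with and without that replicate, at sums of 45.17 to 53.29 CPM at 104 weeks and 6.346 to 12.44 CPM at 16 weeks. There 5 of 17 macrophage markers rose (6 without that replicate), at sums of 211.4 to 415 against 155.9 to 232.4 CPM. Of 5 tested smooth muscle markers 2 rose at 104 weeks (1 without that replicate), at sums of 16.95 to 50.76 against 17.72 to 24.26 CPM.

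Erythroid markers were lower with restriction in the wild type, where Dcn rose: 3 of 5 tested fell (1 without replicate 4 of the freely fed group), and the sums of 367.9 to 823.1 CPM on restriction and 1259 to 2287 CPM on free feeding did not overlap. In freely fed mutants against wild types 4 of the 5 fell (2 without that replicate), at sums of 356.8 to 732.8 against 1259 to 2287 CPM. Cholangiocyte markers summed to 115.1 to 135.1 CPM in restricted and 68.89 to 88.28 CPM in freely fed mutants, without overlap, where Rgs5 rose. Of 8 tested, 2 rose and 1 fell. These sums weigh Tm4sf4 most, which averaged 53.8 CPM over all libraries and 39.0 ± 4.45 CPM in freely fed mutants at 16 weeks. Krt19, Krt7 and Epcam averaged 1.553, 1.355 and 1.141 CPM over all libraries. The summed stellate cell markers overlapped in each comparison, for example at 174.3 to 221.2 CPM in restricted and 155.9 to 208.4 CPM in freely fed wild types. Portal fibroblast and mesothelial sums were 22.63 to 24.33 CPM in freely fed mutants at 16 weeks. They lay below 25.23 to 29.17 CPM at 7 weeks, with 0 of 12 called, and above 12.57 to 21.59 CPM in freely fed wild types at 16 weeks. In the other comparisons they overlapped. Between 16 and 7 weeks endothelial sums overlapped, at 190.4 to 257.4 and 232.8 to 336.4 CPM, with 0 of 18 called. Of 15 hepatocyte markers 1 rose (Alb) and 1 fell (Serpina1c) with restriction in the wild type, at a median log2 fold change of 0.00. Alb, the gene of albumin, stood at 104400 ± 16650 CPM in restricted and 72140 ± 8252 CPM in freely fed wild types, within sums over the list of 140900 to 184300 and 127600 to 145100 CPM. Without replicate 4 of the freely fed group 0 of the 15 rose and 1 fell.

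Genes outside the 10 members with the most similar levels were found for Col1a1, Dcn, Ecm1 and Hgf by Pearson's r of log2 CPM over the 24 libraries. The values of r describe libraries that share groups and depth, and were picked as the highest among 12690 genes. For Col1a1 they were Racgap1 (r = 0.81), Igfbp7 (0.80) and Col5a2 (0.77), the last a chain of type V collagen; with group means taken out r was 0.52, 0.74 and 0.67. For Dcn they were Srfbp1 (0.90), Tnfaip1 (0.85) and Adm (0.84), with 0.73, 0.49 and 0.58 after the group means were taken out. For Ecm1 they were Ggnbp2 (0.85), Polr2h (0.83) and Daxx (0.83), and for Hgf Btbd3 (0.86), Kpna6 (0.83) and the endothelial scavenger receptor gene Stab1 (0.82). With group means taken out r was 0.785, 0.753 and 0.807 for Ecm1, and 0.86, 0.746 and 0.738 for Hgf. Racgap1 and Adm had low means, of 0.611 and 0.93 CPM.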

How the data were processed

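The submitters' processing notes name GRCm38.p6, featureCounts (Subread 1.6.4), STAR 2.7.0f and Trimmomatic 0.39. The table deposited by the authors holds whole-number counts of reads for each gene in each library, without scaling. Which annotation release they used, and how strand and multi-mapped reads were treated, is not given in the sources used here. GENCODE M21 (GRCm38) held each of the 22429 gene identifiers and gave positions and exon lengths.

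Counts were analysed in edgeR 4.0.16 (R 4.3.3), in 1 model with a mean per group over all 24 libraries (18 residual degrees of freedom), after filterByExpr (12690 genes kept) and TMM. Each of 8 contrasts was tested with the quasi-likelihood F test, adjusted by Benjamini-Hochberg over all genes tested. Correlations used log2 CPM with a prior count of 2. The fit was tested on simulated counts. Alternatives were DESeq2 1.42.0, its size factors, other filters, only the compared groups, a replicate block, and each library left out; leaving replicate 4 of the freely fed wild type at 16 weeks out of the list counts, and out of comparisons of other groups, was added after the data were seen. All 10 members are named, and of each other list at most 3 called genes per comparison with the smallest adjusted p, beside the 3 genes most correlated with Col1a1, Dcn, Ecm1 and Hgf. Members, lists and tests were chosen with earlier results of these data known. Promoter sequences are from RefSeq (GRCm38.p6). No 2 replicates were alike within sampling error (their chi-square was at least 8.77 per degree of freedom). Equal replicate numbers did not pair samples: over 60 same-numbered pairs the mean correlation of deviations was 0.007. Some listed genes are not reported here.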

Additional observations from a re-analysis of the deposited data

Results flagged for a closer look

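In 6 of 60 groups of 4 libraries (10 genes in 6 groups), 1 library stood apart from the others by Dixon's criterion, which chance alone meets in about 1 in 20 groups. In 3 of the 6 it was replicate 4 of the freely fed wild type at 16 weeks, with 19.1 CPM for Col1a1, 22.3 CPM for Col1a2 and 52.3 CPM for Col3a1. The other 3 were Pdgfrb at 6.49 CPM in replicate 2 of the restricted mutants, the highest of its group, Pdgfrb at 3.49 CPM in replicate 4 of the wild types at 104 weeks, the lowest of its group, and Reln at 60.0 CPM in replicate 4 of the mutants at 7 weeks, the highest of its group. No difference of effects between genotypes was called for a member.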

How the results depend on the processing

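Of 480 values recomputed under other settings, 468 kept their direction and their side of the threshold, as did 734 of 830 values with 1 library left out. With only the compared groups in the fit, the genes called became 2202 (mutant against wild type, freely fed), 877 (the same, restricted), 568 (mutant, 16 against 7 weeks), 986 (restriction in the wild type), 126 (restriction, mutant minus wild type) and 755 (age, mutant minus wild type), beside 1262, 2320, 87, 1726, 190 and 387 with all groups. That fit called 0 members between 104 and 16 weeks and 1 between 16 and 7 weeks. DESeq2 called 201 genes between 16 and 7 weeks in the mutant, 388 for the difference in restriction and 646 for that in age, and 2 members between 104 and 16 weeks (Col1a1 and Col3a1), 1 between 16 and 7 weeks and 2 with restriction in the mutant. Without the filter on low counts, 1 member was called with restriction in the wild type. The cause of these changes was not tested.

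With a replicate block the log2 fold change of Col1a2 with restriction in the mutant was -0.009 and the Pdgfrb difference of restriction effects -0.006, against 0.02 and 0.01 without it. The block changed no member's call. Of 60 same-numbered pairs 7 correlated above 0.1, and 7 of 24 libraries correlated best with their own number, so the numbers were not taken to pair samples.

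With 1 library left out at a time, genes called ran between 792 and 1533 for 104 against 16 weeks, 29 and 80 for 16 against 7 weeks, 1051 and 2009 for restriction in the wild type, 109 and 225 for the difference in restriction and 228 and 505 for that in age. Members called ran between 0 and 1 in restricted mutants against wild types, 0 and 2 at 104 against 16 weeks, 0 and 1 at 16 against 7 weeks, 1 and 3 with restriction in the wild type, and 0 and 3 with restriction in the mutant. Col1a1 was called at 104 against 16 weeks without replicate 2 of the 104-week group (-1.92 ± 0.55, edgeR adjusted p = 0.033).

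Some log2 fold changes changed sign with 1 library left out, with these lowest and highest values. For freely fed mutants against wild types they were -0.64 and 0.629 for Col1a1, -0.221 and 0.807 for Col1a2, -0.556 and 0.245 for Col3a1, -0.029 and 0.326 for Pdgfrb, -0.153 and 0.346 for Hgf, and -0.116 and 0.263 for Reln. For restricted mutants against wild types they were -0.095 and 0.248 for Pdgfrb and -0.174 and 0.051 for Ecm1. At 104 against 16 weeks they were -0.061 and 0.449 for Rgs5, -0.107 and 0.231 for Ecm1, -0.296 and 0.095 for Hgf, and -0.048 and 0.334 for Reln. At 16 against 7 weeks they were -0.147 and 0.214 for Dcn, -0.158 and 0.25 for Des, -0.021 and 0.42 for Ecm1, and -0.459 and 0.005 for Hgf. With restriction they were -0.718 and 0.266 for Col1a2 in the wild type, and in the mutant -0.384 and 0.073 for Col1a1, -0.18 and 0.267 for Col1a2, and -0.107 and 0.096 for Reln. For the difference in restriction they were -0.247 and 0.783 for Col1a2, -0.231 and 0.162 for Pdgfrb, and -0.064 and 0.437 for Hgf. For the difference in age they were -0.354 and 1.238 for Col1a1, -0.633 and 0.408 for Col1a2, -0.355 and 0.515 for Col3a1, -0.271 and 0.09 for Dcn, -0.151 and 0.375 for Ecm1, and -0.367 and 0.163 for Hgf. Counts were under 50 in some libraries for Col1a1, Col1a2, Des, Pdgfrb, Rgs5 and Hgf, which limits the precision of their values.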

Other observations

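Replicate 4 of the freely fed wild type at 16 weeks was the highest of its group for 11 of 15 other collagens, 15 of 26 matrix glycoproteins and proteoglycans, 14 of 18 endothelial markers and 12 of 17 macrophage markers, beside 26.2% of all genes. It was the highest for 5 of 23 stellate cell and pericyte markers and 2 of 15 hepatocyte markers. Among listed genes, Thbs1, the gene of thrombospondin 1, stood at 4.39 CPM in this library against 0.299 to 0.611 CPM in the other 3, and Tnc, that of tenascin C, at 1.17 CPM against 0 to 0.278 CPM. Vim, the gene of vimentin, stood at 40.3 CPM against 10.2 to 12.8 CPM. These genes were picked after their values were seen, and 1 library has no replicate of its own.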
